A study of Homo sapiens with 12 samples.

Results

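Expression of 9 genes of the Notch pathway was followed across 4 lines of HCT116, a human colorectal cancer cell line. The genes were the receptors NOTCH1, NOTCH2 and NOTCH3, the ligands DLL1, DLL4, JAG1 and JAG2, the Notch target HES1 and the secretory lineage factor ATOH1. They were taken from the count table by symbol, 9 of the 28395 genes listed there. Of the 9 genes, 8 reached a CPM (counts divided by the library total, per 1e6) of 0.5 in at least 3 libraries, as did 15853 genes in all. ATOH1 did not, and is described by its reads.

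RNA-seq of polyA RNA was performed on 3 libraries per line, 12 in all. EV cells carried the empty pcDNA vector and EHF cells the plasmid pcDNA3.1-EHF, both under geneticin selection. CDX1 cells were transduced with the retrovirus MSCV-IRES-GFP-CDX1 and sorted for GFP, and EHF+CDX1 cells were CDX1 cells that then received the EHF plasmid and geneticin. EHF is an ETS family transcription factor and CDX1 an intestinal homeobox factor. The plasmid lines were raised from drug-resistant clones, the CDX1 line was a sorted population, and no line carried an empty retrovirus, so transduction and CDX1 cannot be told apart. How many clones stood behind a library, and whether the 3 libraries of a line came from separate cultures, is not given in the sources used here, where the clustering of the RNA-seq data is described with fewer biological replicates than the 3 libraries a line analysed here. The p-values thus measure the spread between these libraries, which may be technical.

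Notch receptors sit in the cell membrane and are switched on by a Delta-like or Jagged ligand on a neighbouring cell. The bound receptor is cut first by an ADAM protease and then by gamma-secretase, and its freed intracellular part joins the DNA-binding protein RBPJ and a Mastermind protein to switch on targets such as HES1. In the intestinal epithelium HES1 represses ATOH1, so that cells with Notch activity take an absorptive fate and cells without it a secretory fate.

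The libraries held between 13523007 and 74186741 counts. Under the Trimmed Mean of M-values (TMM) normalization used for all CPM values, factors were between 0.799 and 0.845 in CDX1 cells and between 0.973 and 1.09 elsewhere. EHF and CDX1 were high in the lines labelled for them, but CDX1 expression was 525 ± 35.8 CPM in CDX1 and 5419 ± 277 CPM in EHF+CDX1 cells (SD, n = 3 each), and EHF was 299 ± 54.4 CPM in EV and 12.3 ± 0.603 CPM in CDX1 cells. All pairs of libraries of a line differed by more than counting noise, where the chi-square over its degrees of freedom was 3.21 or more, and EV replicate 3 stood apart at 323 and 294 from EV replicates 1 and 2. Mitochondrially encoded genes took 19.8% of the counts in EV replicate 3 and between 7.02% and 13.3% in the other libraries. All 5 epithelial markers (EPCAM, CDH1, KRT8, KRT18 and KRT19) were expressed in every line, with summed levels from 2361 CPM in CDX1 to 5440 CPM in EV cells. Of single leukocyte markers, LYZ, a lysozyme also made by Paneth cells, was at most 0.189 CPM in EV libraries and at most 19.4 CPM in EHF+CDX1 libraries, and CD14 was at most 1.38 CPM in EHF and 3.81 CPM in CDX1 libraries. Both were named after their values were seen, and their part in the results was not tested. The 4 endothelial markers PECAM1, CDH5, VWF and KDR summed to at most 2.04 CPM. Of the fibroblast markers COL1A1, COL1A2, COL3A1, PDGFRB, LUM and DCN, 2 of 6 passed the filter, and their sum was between 168 and 220.1 CPM in CDX1 cells and between 34.5 and 76.7 CPM in the other lines, nearly all of it COL1A1, while 3 of the 6 genes were at 0 in all EV libraries and 1 in all CDX1 libraries. Because whole cultures were sequenced, fewer cells that express a gene and less RNA per cell cannot be told apart.

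Of the 8 members tested, HES1 had the largest log2 fold change in CDX1 against EV cells, at 2.69 (SE 0.18). Its level in CDX1 cells was 6.45-fold that in EV cells, while EHF+CDX1 cells, which were made from CDX1 cells, had 24.5 ± 0.679 CPM beside 19.8 ± 0.924 CPM in EV cells (SD, n = 3 each). DLL1 and DLL4 were also higher in CDX1 than in EV cells, and none of the 8 members tested passed the test between EHF+CDX1 and EV cells. The plot of CPM by library shows the same values for each gene.

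**Figure D1:**
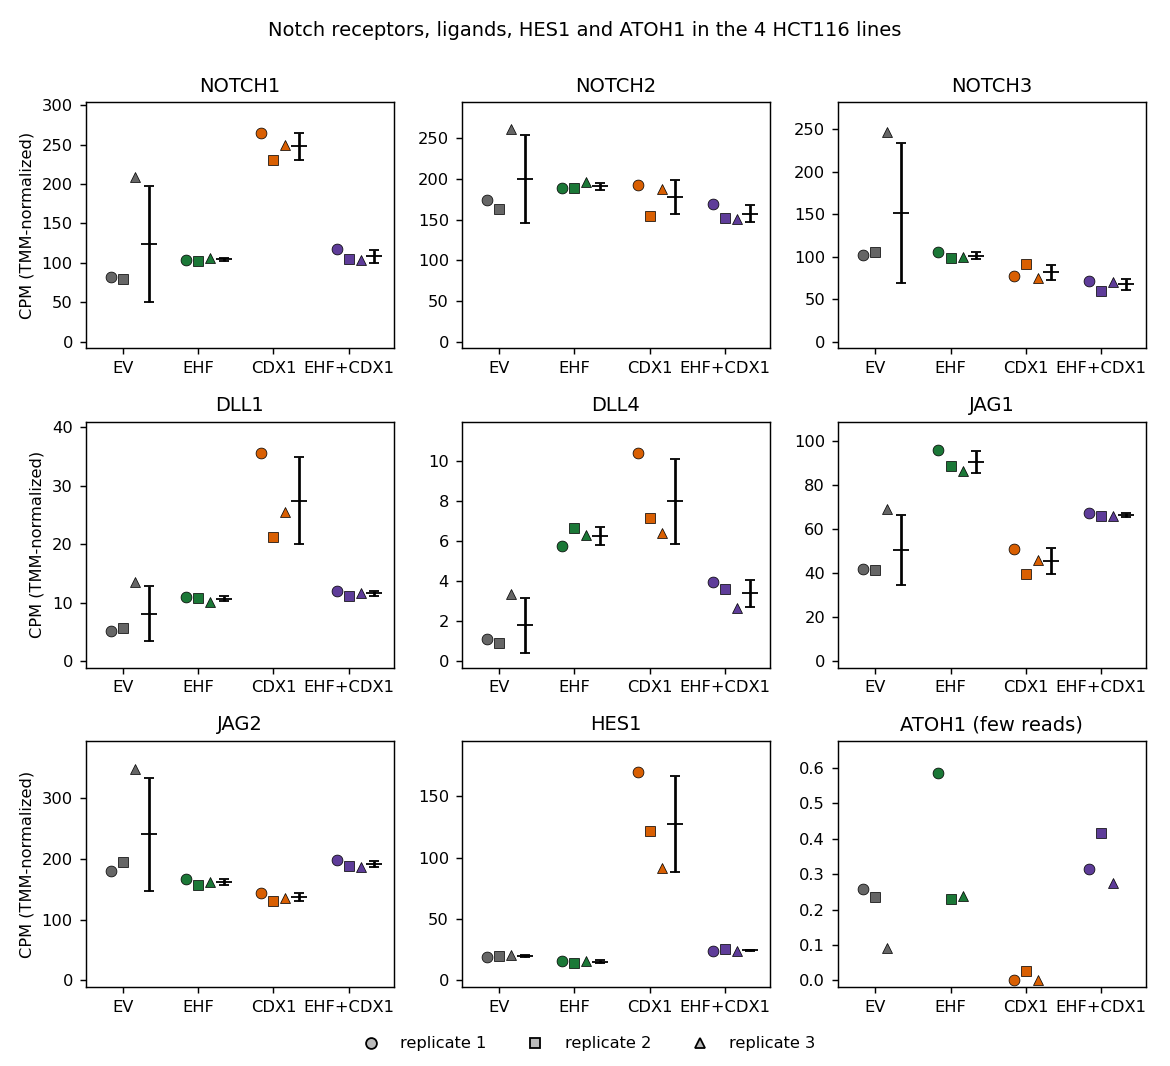
CPM (TMM-normalized, linear axes) of each member in each library, by line, with the replicate number as the symbol and the mean ± SD of the 3 libraries beside it (no mean is drawn for ATOH1, which had at most 22 reads in a library). HES1 lies between 91.9 and 170 CPM in CDX1 cells and between 13.9 and 25.2 CPM elsewhere, and EV replicate 3 lies above EV replicates 1 and 2 for all receptors and ligands.

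Levels of different genes can be compared only per length, and the deposited log2 RPKM values, which the authors quantile-normalized between libraries, were used for that. In EV cells the order was JAG2, with a mean log2 RPKM of 5.36 ± 0.56, then NOTCH3, NOTCH2, HES1, NOTCH1 and JAG1, and far below them DLL1 at 0.68 ± 0.69 and DLL4 at -1.07 ± 0.71 (SD, n = 3 each). Neighbours from JAG2 down to JAG1 overlapped in their EV libraries, and JAG1, DLL1 and DLL4 did not. JAG2 had the highest mean of the 8 genes in EV, EHF and EHF+CDX1 cells, at 4.93 ± 0.05 in EHF and 5.17 ± 0.04 in EHF+CDX1 cells. In CDX1 cells HES1 was first, at 6.17 ± 0.36, followed by NOTCH1 at 4.41 ± 0.06 and JAG2 at 4.29 ± 0.04, with no overlap between these 3 genes. DLL4 was the lowest of the 8 genes in all 4 lines. In EHF cells all neighbours except NOTCH2 and JAG1 were apart in every library, in CDX1 cells all except JAG1 and DLL1, and in EHF+CDX1 cells all except NOTCH2 and NOTCH1.

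**Figure D2:**
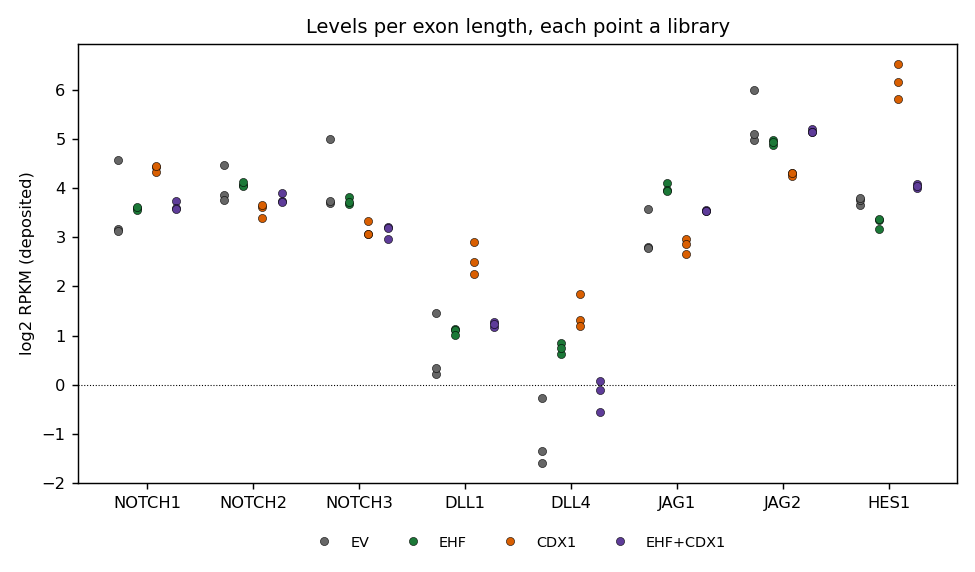
Deposited log2 RPKM of the 8 members that passed the filter, 1 point per library and 1 colour per line. JAG2 is highest in EV, EHF and EHF+CDX1 cells, HES1 is highest in CDX1 cells at a mean of 6.17, and DLL4 is lowest in each line.

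To ask which members differed between lines, all 15853 genes were fitted together with edgeR over the 12 libraries, and a gene was called when its difference exceeded 1.5-fold at a Benjamini-Hochberg adjusted p of 0.05. Fold changes and standard errors (SE) are from the same fit. The comparisons share libraries, and their values are given side by side for that reason.

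The study's main comparison, EHF+CDX1 against EV cells, called 0 of the 8 members, against 7.3% of all genes called higher and 3.13% called lower. At an unadjusted p of 0.05 in the same edgeR test, 1 member (NOTCH3) passed, and limma voom and DESeq2 also called 0. The median log2 fold change of the 8 members was 0.06, against -0.03 over all genes. The count depended on the EV libraries. DLL1 and DLL4 were called higher without EV replicate 3, where 11.2% of all genes were called higher and 4.28% lower, and NOTCH3 was called lower without EV replicate 1 or EV replicate 2.

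In EHF against EV cells 1 of 8 members, DLL4, was called higher and 0 lower, against 5.68% and 2.65% of all genes. The median log2 fold change was -0.16 for the members and -0.04 for all genes. Without EV replicate 3 JAG1 was called too, and 9.51% of all genes were then called higher and 3.46% lower.

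In CDX1 against EV cells 3 of 8 members were called higher (DLL1, DLL4 and HES1) and 0 lower, against 21.3% and 23.3% of all genes. The median log2 fold change was 0.42 for the members and -0.03 for all genes. These 3 calls held under all 8 other settings and without each of the 12 libraries in turn, and without EV replicate 3 NOTCH1 was called as well, where 26.3% of all genes were higher and 24.8% lower. NOTCH3 and JAG2 were called lower in this comparison without EV replicate 1 or EV replicate 2.

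When EHF+CDX1 was set against CDX1 cells, 3 of 8 members were called lower (NOTCH1, DLL1 and HES1) and 0 higher, against 18.7% and 22.3% of all genes. The median log2 fold change was -0.73 for the members and 0.04 for all genes. Between EHF+CDX1 and EHF cells edgeR called 0 of 8 members, against 2.49% of all genes called higher and 0.189% lower, with 0 members at an unadjusted p of 0.05 and 0 calls by limma voom and DESeq2. The members' median log2 fold change there was -0.11, against 0.00 over all genes. HES1 had the smallest p of the members in that comparison, at a log2 fold change of 0.68 (SE 0.18, edgeR adjusted p = 0.0293 against no change and 1 against 1.5-fold).

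**Figure D3:**
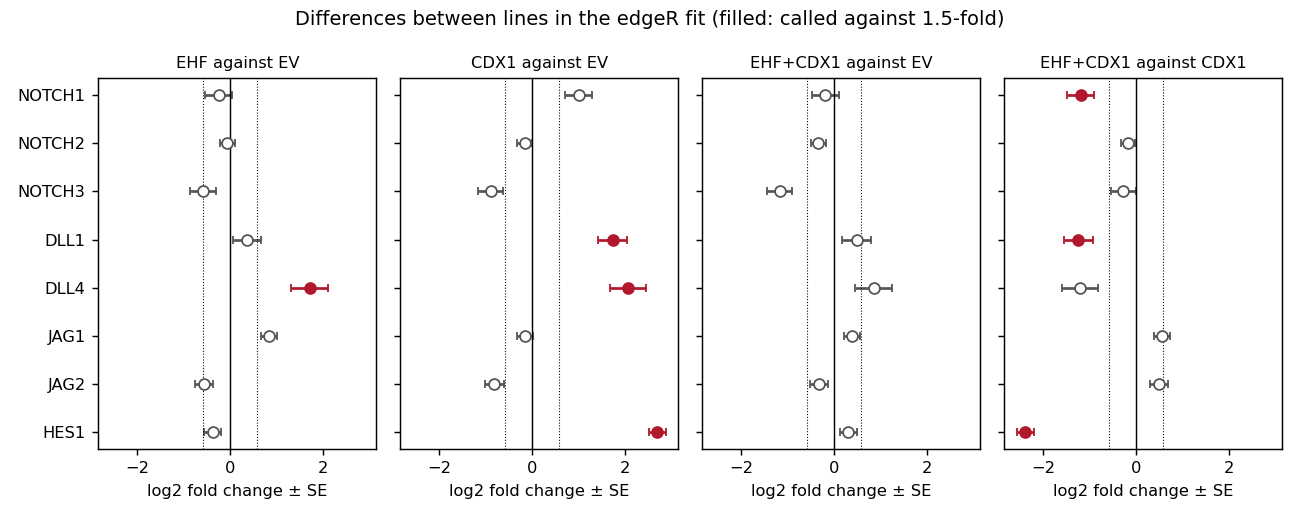
Log2 fold change ± SE of the 8 tested members in 4 comparisons (edgeR, 12 libraries), filled where called against a 1.5-fold change, which the dotted lines mark. HES1 lies at 2.69 in CDX1 against EV cells, at -2.38 in EHF+CDX1 against CDX1 cells and at 0.30 in EHF+CDX1 against EV cells.

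Among the receptors, NOTCH1 (Entrez 4851, chromosome 9, 136494433 to 136546048 on GRCh38.p14 in RefSeq, overlapping LOC124902310 and MIR4673) was highest in CDX1 cells. Its level was 82.7, 79.8 and 209.5 CPM in EV replicates 1 to 3, 104, 103 and 106 CPM in EHF, 265, 230 and 249 CPM in CDX1, and 118, 104 and 103 CPM in EHF+CDX1 libraries. All CDX1 libraries lay above all other libraries, while the EV libraries spanned the range of EHF and EHF+CDX1 cells, with replicate 3 above it and replicates 1 and 2 below. NOTCH1 fell by 1.19 on the log2 scale from CDX1 to EHF+CDX1 cells (SE 0.29, edgeR adjusted p = 0.0243, 3 of 3 libraries). That call was lost without CDX1 replicate 1 (log2 fold change -1.15, edgeR adjusted p = 0.0616), without EHF+CDX1 replicate 2 (-1.15, adjusted p = 0.0675) and without EHF+CDX1 replicate 3 (-1.14, adjusted p = 0.0668). It was also lost with limma voom (-0.76, adjusted p = 0.556), limma on log2 RPKM (-0.76, adjusted p = 0.56) and DESeq2 (-1.20, adjusted p = 0.102), within a range of adjusted p of 5.8e-09 to 0.56 over all alternatives. In CDX1 against EV cells its log2 fold change was 1.0 (SE 0.29, edgeR adjusted p = 0.0655) with all libraries and 1.61 (adjusted p = 3.8e-11) without EV replicate 3, where it was called.

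NOTCH2 (Entrez 4853, chromosome 1, 119911553 to 120069662), a receptor with partial copies elsewhere in the genome, was called in no comparison. It was 174, 163 and 262 CPM in EV, 189, 188 and 196 CPM in EHF, 193, 154 and 188 CPM in CDX1 and 169, 152 and 151 CPM in EHF+CDX1 libraries. The ranges of neighbouring lines overlapped throughout. Its log2 fold changes ran from -0.34 (SE 0.16, EHF+CDX1 against EV cells) to -0.06 (SE 0.16, EHF against EV cells), but those against EV cells were 0.18 in EHF and 0.08 in CDX1 cells without EV replicate 3, and with limma voom the value was 0.06 in EHF against EV and 0.23 in EHF+CDX1 against CDX1 cells, so no direction is given. Reads of NOTCH2 are uncertain where it is near-identical to its NOTCH2NL copies, of which NOTCH2NLA held between 1.16% and 3.92% as many reads as NOTCH2.

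NOTCH3 (Entrez 4854, chromosome 19, 15159038 to 15200995, overlapping MIR6795) had its lowest levels in EHF+CDX1 cells. The values were 102, 105 and 247 CPM in EV, 106, 98.3 and 99.4 CPM in EHF, 77.5, 91.8 and 75.4 CPM in CDX1, and 71.9, 59.9 and 70.2 CPM in EHF+CDX1 libraries. EHF, CDX1 and EHF+CDX1 libraries followed each other without overlap, and all EHF+CDX1 libraries were below all EV libraries. The log2 fold change of EHF+CDX1 over EV cells was -1.17 (SE 0.27), with an edgeR adjusted p of 0.0679 against 1.5-fold and 0.00633 against no change. This value rested on EV replicate 3, without which it was -0.63 (adjusted p = 0.509), while without EV replicate 1 it was -1.39 (adjusted p = 0.0165) and without EV replicate 2 -1.38 (adjusted p = 0.0212), so that NOTCH3 was then called lower, as it was with all genes of at least 1 read (adjusted p = 0.0485). Over all alternatives the adjusted p ranged from 0.00633 to 0.509.

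Among the ligands, DLL1 (Entrez 28514, chromosome 6, 170282206 to 170291078, overlapping FAM120B) rose in CDX1 cells. It was at 5.21, 5.59 and 13.5 CPM in EV, 11, 10.8 and 10.1 CPM in EHF, 35.6, 21.2 and 25.5 CPM in CDX1, and 12, 11.1 and 11.7 CPM in EHF+CDX1 libraries. The 3 CDX1 libraries were above all others, EHF+CDX1 was narrowly above EHF, and EV libraries were split, with replicates 1 and 2 below and replicate 3 above both lines. DLL1 was 3.31-fold higher in CDX1 than in EV cells (log2 fold change 1.73, SE 0.31, edgeR adjusted p = 0.00205) and 2.37-fold lower in EHF+CDX1 than in CDX1 cells (log2 fold change -1.24, SE 0.31, edgeR adjusted p = 0.022). The second call was lost without CDX1 replicate 1 (-1.02, adjusted p = 0.0974) and without EHF+CDX1 replicate 1 (-1.26, adjusted p = 0.0524), replicate 2 (-1.20, adjusted p = 0.0657) or replicate 3 (-1.23, adjusted p = 0.0532), and with DESeq2 (-1.25, adjusted p = 0.0939), within a range of adjusted p of 4.01e-05 to 0.0974. The rise over EV cells was 2.35 on the log2 scale (adjusted p = 1.58e-08) without EV replicate 3. Against EV cells EHF+CDX1 cells had a log2 fold change of 0.48 (SE 0.31, edgeR adjusted p = 1), which was 1.1 (adjusted p = 0.0118) without EV replicate 3.

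DLL4 (Entrez 54567, chromosome 15, 40929340 to 40939073), the ligand with the fewest reads, was higher in EHF and in CDX1 cells than in EV cells. The EV libraries had 1.1, 0.899 and 3.36 CPM, from 25, 19 and 183 reads. EHF libraries had 5.75, 6.64 and 6.27 CPM, CDX1 libraries 10.4, 7.12 and 6.41 CPM, and EHF+CDX1 libraries 3.93, 3.59 and 2.63 CPM. All EHF and CDX1 libraries were above all EV and EHF+CDX1 libraries, and EHF and CDX1 overlapped. The rise was 3.26-fold in EHF cells (log2 fold change 1.71, SE 0.39, edgeR adjusted p = 0.0414) and 4.17-fold in CDX1 cells (log2 fold change 2.06, SE 0.40, edgeR adjusted p = 0.00221), and without EV replicate 3 the log2 fold changes were 2.65 (adjusted p = 3.67e-06) and 3.0 (adjusted p = 6.38e-08).

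The call in EHF cells was close to the threshold. It was lost without each of the 11 libraries other than EV replicate 3, at log2 fold changes between 1.41 and 1.76 and adjusted p between 0.0502 and 0.11, with limma voom (1.60, adjusted p = 0.078), with the replicate number as a block (1.76, adjusted p = 0.0636) and with only the libraries compared (1.76, adjusted p = 0.195). Without EV replicate 3 the log2 fold change was 2.65 (adjusted p = 3.67e-06). For EHF+CDX1 over EV cells it was 0.85 (SE 0.40, edgeR adjusted p = 0.564) with and 1.83 (adjusted p = 0.000683) without that library. From CDX1 to EHF+CDX1 cells DLL4 had a log2 fold change of -1.21 (SE 0.38, edgeR adjusted p = 0.0567), which passed the threshold without EV replicate 1 (adjusted p = 0.0403), EV replicate 2 (0.0329) or EV replicate 3 (0.000873), and with limma voom (-1.57, adjusted p = 0.00638), within a range of adjusted p of 0.000873 to 0.242.

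JAG1 (Entrez 182, chromosome 20, 10637684 to 10673999, overlapping MIR6870) was highest in EHF cells. The EV libraries had 41.7, 41.2 and 69.1 CPM, EHF 96.0, 89.0 and 86.6 CPM, CDX1 51.0, 39.6 and 46.1 CPM, and EHF+CDX1 67.6, 66.2 and 66.0 CPM. EHF libraries were above all others, and EHF+CDX1 libraries were above CDX1 libraries and between EV replicates 1 and 2 and EV replicate 3. Its log2 fold change in EHF against EV cells was 0.83 (SE 0.18), a 1.78-fold difference with an edgeR adjusted p of 0.219 against 1.5-fold and 0.00388 against no change. Without EV replicate 3 it was 1.12 and was called (adjusted p = 1.36e-05). Over EV cells EHF+CDX1 cells had 0.39 (SE 0.17, edgeR adjusted p = 1).

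JAG2 (Entrez 3714, chromosome 14, 105140995 to 105168776, overlapping MIR6765), the most abundant ligand per length, was lowest in CDX1 cells. The EV libraries had 179, 194 and 346 CPM, EHF 167, 156 and 162 CPM, CDX1 144, 130 and 136 CPM, and EHF+CDX1 197, 189 and 187 CPM. EHF+CDX1, EHF and CDX1 libraries followed each other without overlap, and all EV libraries were above the EHF and CDX1 libraries. The log2 fold change of CDX1 over EV cells was -0.81 (SE 0.20, edgeR adjusted p = 0.0928 against 1.5-fold and 0.00284 against no change), and it was -0.45 (adjusted p = 1) without EV replicate 3, while without EV replicate 1 (-0.99, adjusted p = 0.0164) or replicate 2 (-0.95, adjusted p = 0.0344) it was called. By mean CPM, JAG1 was thus highest in EHF cells, DLL1 highest in CDX1 cells and JAG2 lowest in CDX1 cells.

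HES1 (Entrez 3280, chromosome 3, 194136148 to 194138732), a basic helix-loop-helix repressor and direct Notch target, had 18.8, 20.2 and 20.5 CPM in EV, 15.9, 13.9 and 16.0 CPM in EHF, 170, 122 and 91.9 CPM in CDX1, and 23.9, 25.2 and 24.3 CPM in EHF+CDX1 libraries. No libraries of different lines overlapped, and the order was CDX1, EHF+CDX1, EV and EHF. HES1 rose 6.45-fold in CDX1 over EV cells (log2 fold change 2.69, SE 0.18, edgeR adjusted p = 4.2e-07) and was 5.22-fold lower in EHF+CDX1 than in CDX1 cells (log2 fold change -2.38, SE 0.18, edgeR adjusted p = 1.67e-06). EV replicate 3, which stood well above EV replicates 1 and 2 for the receptors and ligands, had 20.5 CPM of HES1 beside 20.2 and 18.8 CPM, and the log2 fold change in CDX1 cells was 2.71 without it. Against EV cells the log2 fold change was 0.30 (SE 0.17, edgeR adjusted p = 1) in EHF+CDX1 and -0.38 (SE 0.18, adjusted p = 1) in EHF cells, both in 3 of 3 libraries and neither called under any alternative.

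CDX1 cells also stood apart in 9 heat shock genes, picked after their values were seen (HSPA1A, HSPA1B, HSPA6, HSPA8, HSPB1, HSPH1, DNAJB1, HSP90AA1 and BAG3), so calls among them are not counted. Their summed level was between 53500.4 and 75494 CPM in CDX1 libraries, between 2657 and 6326 CPM in EV, and between 5515 and 6608 CPM in EHF and EHF+CDX1 libraries. Within CDX1 cells the sum was 75494, 53500.4 and 65715 CPM in replicates 1 to 3, where HES1 was 170, 122 and 91.9 CPM. HSPA1A and HSPA1B are near-identical copies, and reads between them are uncertain. The part of this heat shock signal, and of the COL1A1 signal given above, in the HES1, DLL1 and DLL4 results in CDX1 cells was not tested.

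The promoters of 8 of the 9 members were in the RefSeq table of windows on GRCh38.p14, from 250 bases before to 50 bases after each start, and that of DLL1 was not analysed here. Each was searched on both strands for the letters GTGGGAA (an RBPJ core), CCGGAA (an ETS core) and TTTAT (a CDX core), which 6.25%, 17.2% and 34.9% of all 35116 promoters in the table hold. HES1 was the single member among the 8 with a match, to GTGGGAA, and none of the 8 held CCGGAA or TTTAT, which says only that these letters are absent from the windows. A shorter form, TGGGAA, which lies inside GTGGGAA, was chosen after seeing the data, was found in 24% of all promoters and occurred in 1 of the 8 windows, that of HES1, at positions -84 to -79 and -70 to -65 from its start, both on the strand of the gene. The 250 bases before the starts of HES1 (chr3:194135898-194136147, plus strand) and, as a promoter of another member called higher in CDX1 cells, DLL4 (chr15:40929090-40929339, plus strand) are shown 5′ to 3′ with TGGGAA in capitals.
HES1: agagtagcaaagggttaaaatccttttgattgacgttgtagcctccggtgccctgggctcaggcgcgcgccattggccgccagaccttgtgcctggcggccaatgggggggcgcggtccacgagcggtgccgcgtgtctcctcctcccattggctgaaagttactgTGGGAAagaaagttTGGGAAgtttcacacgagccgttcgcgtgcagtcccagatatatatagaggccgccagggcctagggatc
DLL4: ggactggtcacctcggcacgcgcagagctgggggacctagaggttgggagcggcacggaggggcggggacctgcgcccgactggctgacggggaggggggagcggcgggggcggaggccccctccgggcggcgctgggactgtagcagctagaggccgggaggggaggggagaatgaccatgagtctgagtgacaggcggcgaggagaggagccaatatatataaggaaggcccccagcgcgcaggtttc
The match to GTGGGAA in HES1 spans -85 to -79 and so overlaps the first of the matches to TGGGAA. A match is a description of the letters and not of binding.

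ATOH1 (Entrez 474, chromosome 4, 93828753 to 93830964), the basic helix-loop-helix factor that commits intestinal cells to the secretory lineage, was near the limit of detection in all lines. It had 6, 5 and 5 reads in the EV libraries, 11, 11 and 19 in EHF, 0, 1 and 0 in CDX1, and 18, 22 and 4 in EHF+CDX1 libraries. The CDX1 libraries were below all others. The reads summed over a line gave 0.162 CPM in EV (95% exact Poisson interval 0.0926 to 0.263), 0.28 CPM in EHF (0.201 to 0.38), 0.00806 CPM in CDX1 (0.000204 to 0.0449) and 0.354 CPM in EHF+CDX1 cells (0.257 to 0.475), intervals that cover counting error only. A CDX1 library with 0 reads allows up to 0.0657 CPM in replicate 1 and 0.0772 CPM in replicate 3, the level of 3 reads. The ratio of EV to CDX1 cells was 20.1 (exact interval 3.12 to 843) and that of EHF+CDX1 to CDX1 cells 43.9 (7.48 to 1772).

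In a fit of all 24839 genes with at least 1 read, ATOH1 was called lower in CDX1 than in EV cells (edgeR adjusted p = 0.00721) and higher in EHF+CDX1 than in CDX1 cells (edgeR adjusted p = 0.000879), and was not called in EHF (adjusted p = 0.885) or EHF+CDX1 (adjusted p = 0.769) against EV cells. The interaction of EHF and CDX1 was also called for ATOH1 in that fit (edgeR adjusted p = 0.0221). The fitted fold changes of a gene with so few reads depend on the prior count and are left out. In CDX1 cells, HES1 was thus at its highest and ATOH1, with 1 read in all, at its lowest of the 4 lines. HES1 in EHF+CDX1 cells was 5.22-fold below its level in CDX1 cells and was not called against EV cells. ATOH1 by summed reads was 0.354 CPM in EHF+CDX1 and 0.28 CPM in EHF cells, with overlapping intervals. By the mean of the libraries it was 0.336 CPM in EHF+CDX1 and 0.351 CPM in EHF cells, so no order is given between these lines.

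Whether EHF had the same effect with and without CDX1 was tested as an interaction, the log2 fold change of EHF+CDX1 over CDX1 cells minus that of EHF over EV cells. It was called in 4 of 8 members, lower for DLL1, DLL4 and HES1 and higher for JAG2, against 18% of all genes lower and 20.2% higher, with a median of -0.61 for the members and 0.05 for all genes. For DLL4 the interaction was -2.91 (SE 0.55, edgeR adjusted p = 0.00175), from 1.71 for EHF over EV cells and -1.21, which was not called, for EHF+CDX1 over CDX1 cells. The value for HES1 was -2.01 (SE 0.25, edgeR adjusted p = 0.000168), from -0.38 in EV and -2.38 in CDX1 cells. Both were called under all 7 other settings with an interaction and without each of the 12 libraries, and for DLL4 the value was -3.83 (adjusted p = 2.48e-08) without EV replicate 3. For DLL1 it was -1.60 (SE 0.43, edgeR adjusted p = 0.0252), and the call was lost without CDX1 replicate 1 (-1.39, adjusted p = 0.0672), without EHF+CDX1 replicate 2 (-1.58, adjusted p = 0.054) and with DESeq2 (-1.64, adjusted p = 0.0577), within a range of adjusted p of 1.33e-06 (-2.22, without EV replicate 3) to 0.0672. For JAG2 it was 1.05 (SE 0.28, edgeR adjusted p = 0.0478), and this call was made in 2 of 12 fits that left out a library, those without EV replicate 1 (1.23, adjusted p = 0.0107) and EV replicate 2 (1.19, adjusted p = 0.0217), with 0.69 (adjusted p = 0.0603) without EV replicate 3 and values between 1.01 and 1.08 (adjusted p between 0.0628 and 0.0895) without each library of the other lines. It was also lost with DESeq2 (1.04, adjusted p = 0.298), the replicate block (1.02, adjusted p = 0.0585), all genes with at least 1 read (1.06, adjusted p = 0.0505) and limma on log2 RPKM (1.31, adjusted p = 0.0501). Besides EHF, the EHF+CDX1 and CDX1 lines differed in CDX1 level, clonal selection and geneticin, and these cannot be told apart.

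The other genes of the pathway were followed in a list of 68 genes in 7 groups, of which 61 were tested and 7 (DLK1, HES5, HEY2, GFI1B, NEUROG3, NEUROD1 and INSM1) did not reach the filter. In EHF+CDX1 against EV cells 6 of 61 were called higher and 2 lower, 9.84% and 3.28% beside the 7.3% and 3.13% of all genes, with a median log2 fold change of -0.07 against -0.03 over all genes. In EHF against EV cells 6 were called higher and 3 lower, 9.84% and 4.92% beside 5.68% and 2.65% of all genes, with a median of 0.01 against -0.04. In CDX1 against EV cells 18 were called higher and 15 lower, 29.5% and 24.6% beside 21.3% and 23.3% of all genes, with a median of 0.36 against -0.03. In EHF+CDX1 against CDX1 cells 17 were higher and 21 lower, 27.9% and 34.4% beside 22.3% and 18.7% of all genes, with a median of -0.29 against 0.04. In EHF+CDX1 against EHF cells 2 (DTX3L and TLE4) were higher and 0 lower, beside 2.49% and 0.189% of all genes, with a median of -0.06 against 0.00. In the interaction 14 were higher and 16 lower, 23% and 26.2% beside 20.2% and 18% of all genes, with a median of -0.41 against 0.05. Without EV replicate 3 the counts were 8 and 2 in EHF+CDX1 (beside 11.2% and 4.28% of all genes), 12 and 3 in EHF (beside 9.51% and 3.46%) and 25 and 15 in CDX1 against EV cells (beside 26.3% and 24.8%).

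**Figure D4:**
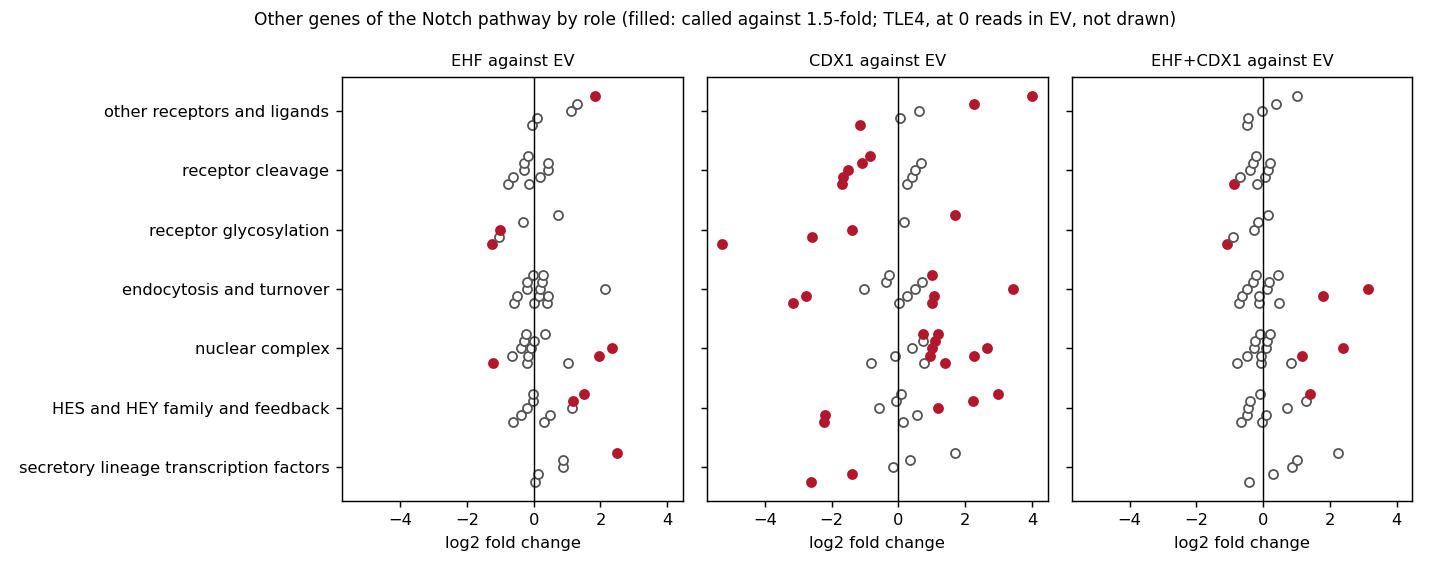
Log2 fold changes of the tested genes of the wider list, by role, in 3 comparisons with EV cells (edgeR, filled where called against 1.5-fold). TLE4, with 0 reads in EV cells, is not drawn. In CDX1 cells LFNG lies at -5.27 and 8 genes of the nuclear complex are called higher.

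Of 9 cleavage genes 5 fell (ADAM10, PSEN2, APH1A, APH1B and PSENEN) and 0 rose in CDX1 against EV cells, beside 23.3% and 21.3% of all genes, with a median log2 fold change of -0.84. The other 4 were not called. ADAM10, the protease of the first cut, was 195 ± 37.1 CPM in EV, 127 ± 4.28 CPM in EHF, 61.6 ± 0.916 CPM in CDX1 and 107 ± 0.93 CPM in EHF+CDX1 cells (SD, n = 3 each), and fell by 1.66 on the log2 scale in CDX1 (SE 0.12, edgeR adjusted p = 1.76e-06) and by 0.87 in EHF+CDX1 cells (SE 0.11, edgeR adjusted p = 0.0352). The call in EHF+CDX1 cells was lost with limma voom and DESeq2 (adjusted p = 0.311 and 0.199), and without EHF replicate 2 or 3 or any of the EHF+CDX1 replicates (adjusted p between 0.0514 and 0.13). It was also lost with limma on log2 RPKM (adjusted p = 0.292) and with only the libraries compared (adjusted p = 0.163). PSEN2, a catalytic subunit of gamma-secretase, went from 27.2 ± 13.0 CPM in EV to 8.55 ± 0.88 CPM in CDX1 cells. In EHF against EV cells edgeR called 0 of the 9 cleavage genes, with 0 at an unadjusted p of 0.05. Of the 5 glycosylation genes LFNG and POFUT1 were called lower there and 0 higher. Of all genes 2.65% were called lower and 5.68% higher in that comparison.

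LFNG, a Fringe glycosyltransferase that modifies Notch receptors and changes their response to Delta-like and Jagged ligands, differed from EV cells in all 3 other lines. Its level was 28.7 ± 2.11 CPM in EV, 12 ± 0.713 CPM in EHF, 0.737 ± 0.0709 CPM in CDX1 and 13.6 ± 0.0252 CPM in EHF+CDX1 cells (SD, n = 3 each). It was 38.6-fold lower in CDX1 (log2 fold change -5.27, SE 0.13, edgeR adjusted p = 2.25e-10), 2.4-fold lower in EHF (log2 fold change -1.26, SE 0.10, adjusted p = 0.00012) and 2.11-fold lower in EHF+CDX1 than in EV cells (log2 fold change -1.08, SE 0.10, adjusted p = 0.000861), with no overlap of libraries. Of the 5 glycosylation genes 3 fell and 1 rose in CDX1 cells, beside 23.3% and 21.3% of all genes. The related MFNG was called higher in CDX1 cells (log2 fold change 1.71, SE 0.33, edgeR adjusted p = 0.00346). POFUT1 and POGLUT1, which add the first sugars to the receptors, also fell in CDX1 cells, POGLUT1 from 27.1 ± 14.5 to 4.55 ± 0.679 CPM. POFUT1 fell in EHF cells from 79.7 ± 14.0 to 39.9 ± 1.59 CPM (log2 fold change -1.0, edgeR adjusted p = 0.00813). That call was lost with limma voom (adjusted p = 0.0549), limma on log2 RPKM (adjusted p = 0.0602) and only the libraries compared (adjusted p = 0.0696).

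Of 13 genes of the nuclear complex 8 rose and 0 fell in CDX1 against EV cells, beside 21.3% and 23.3% of all genes, with a median log2 fold change of 0.94. In EHF+CDX1 against CDX1 cells 10 fell and 1 rose, beside 18.7% and 22.3% of all genes. RBPJ, the DNA-binding subunit, rose by a log2 fold change of 0.94 (SE 0.08, edgeR adjusted p = 0.000336) in CDX1 cells, and the co-activators EP300 (1.19) and CREBBP (1.39) rose with it, as did the corepressors CIR1 (2.27) and SPEN (1.11). The Mastermind genes differed between lines. MAML3 was 2.64 ± 0.842 CPM in EV, 10.7 ± 0.46 CPM in EHF, 16.9 ± 3.55 CPM in CDX1 and 6.09 ± 0.293 CPM in EHF+CDX1 cells, while MAML2 was 2.20 ± 0.0281, 11.1 ± 0.43, 1.24 ± 0.331 and 11.6 ± 0.326 CPM in the same order. MAML2 rose 5.07-fold in EHF (edgeR adjusted p = 5.18e-06) and 5.27-fold in EHF+CDX1 over EV cells (edgeR adjusted p = 2.88e-06). MAML3 was called in all 3 lines against EV cells, in EHF+CDX1 cells at a log2 fold change of 1.16 (SE 0.21, edgeR adjusted p = 0.0258) that was lost with limma voom (0.98, adjusted p = 0.294) and DESeq2 (adjusted p = 0.114), and without EV replicate 1 or 2 or any of the EHF+CDX1 replicates (adjusted p between 0.0585 and 0.0879). The MAML3 call in EHF+CDX1 cells was also lost with limma on log2 RPKM (adjusted p = 0.0753) and with only the libraries compared (adjusted p = 0.111). NCOR1, a corepressor named after its values were seen, was the gene of the group called lower in EHF cells (-1.22).

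Of the 5 tested ligands and receptors outside the 9 genes, 2 rose and 1 fell in CDX1 cells, beside 21.3% and 23.3% of all genes, and 1 rose in EHF cells, beside 5.68%. DLL3, an atypical ligand, was 0.13 ± 0.15 CPM in EV and 2.69 ± 0.0814 CPM in CDX1 cells (log2 fold change 4.0, SE 0.60, edgeR adjusted p = 0.000198, from at most 16 reads in an EV library), and the log2 fold change was 5.80 without EV replicate 3. CNTN1, a neural cell adhesion protein proposed as a Notch ligand, rose from 3.63 ± 2.14 to 18.0 ± 4.34 CPM in CDX1 cells (log2 fold change 2.26, and 2.91 without EV replicate 3), and DLK2, named after its values were seen, fell. NOTCH4 rose from 0.462 ± 0.123 CPM in EV to 1.66 ± 0.254 CPM in EHF cells (log2 fold change 1.84, SE 0.35, edgeR adjusted p = 0.0131), a call lost with limma voom (adjusted p = 0.0696) and with limma on log2 RPKM (adjusted p = 0.176).

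Of 13 endocytosis and turnover genes 4 rose (MIB1, NUMB, DTX3 and FBXW7) and 2 fell (NEURL1B and DTX4) in CDX1 against EV cells, shares of 30.8% and 15.4% beside 21.3% and 23.3% of all genes. In EHF+CDX1 against EV cells 2 rose (DTX3 and DTX3L) and 0 fell, beside 7.3% and 3.13%. In EHF against EV cells edgeR called 0, beside 5.68% of all genes higher and 2.65% lower, and 1 had an unadjusted p under 0.05. NEURL1B, a ubiquitin ligase for Notch ligands, fell from 17.9 ± 6.84 to 1.99 ± 0.197 CPM in CDX1 cells. DTX3L was 20.4 ± 5.53 CPM in EV, 23.1 ± 1.18 CPM in EHF, 16.0 ± 4.03 CPM in CDX1 and 70.7 ± 0.657 CPM in EHF+CDX1 cells, a 3.45-fold rise over EV cells (log2 fold change 1.79, SE 0.20, edgeR adjusted p = 0.00027). DTX3 was called on at most 7 reads in an EV library, with a log2 fold change of 3.42 in CDX1 and 3.13 in EHF+CDX1 cells (5.05 and 4.78 without EV replicate 3), and in EHF+CDX1 cells the call was lost with limma voom (adjusted p = 0.202) and without EHF+CDX1 replicate 1 (adjusted p = 0.0576). It was also lost there with limma on log2 RPKM (adjusted p = 0.0819) and with only the libraries compared (adjusted p = 0.053).

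Of the 11 tested genes of the HES and HEY family and its feedback, 3 rose (HEY1, TLE1 and TLE3) and 2 fell (HES2 and HEYL) in CDX1 against EV cells, shares of 27.3% and 18.2% beside 21.3% and 23.3% of all genes. HEY1, a Notch target like HES1, went from 1.02 ± 0.984 to 5.30 ± 0.675 CPM in CDX1 cells (log2 fold change 2.23, SE 0.48, edgeR adjusted p = 0.00375, and 3.54 without EV replicate 3), while HES2 went from 12.2 ± 2.37 to 2.60 ± 0.465 CPM. In EHF cells HES2 was called higher instead, at 27.5 ± 0.931 CPM (log2 fold change 1.17, SE 0.15, edgeR adjusted p = 0.00357). NRARP, a Notch feedback target named after its values were seen, had log2 fold changes of -0.05 in EHF+CDX1 and -0.21 in EHF cells over EV cells (edgeR adjusted p = 1 each). In CDX1 against EV cells NRARP was not called either, with or without EV replicate 3. TLE1, a Groucho corepressor, was 15.3 ± 1.64 CPM in EV, 43.2 ± 2.61 CPM in EHF, 120 ± 15.8 CPM in CDX1 and 40.5 ± 2.32 CPM in EHF+CDX1 cells and was called higher than in EV cells in all 3 lines. TLE4 had 0 reads in the EV libraries and between 1.66 and 3.44 CPM in EHF+CDX1 libraries, at least 11.7-fold higher than the level of 3 reads in an EV library.

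Of the secretory lineage factors 5 of 9 were tested. SPDEF, a goblet cell factor, was called higher in EHF than in EV cells at low levels (0.0928 ± 0.0919 and 0.654 ± 0.156 CPM, log2 fold change 2.50, edgeR adjusted p = 0.0402), and the log2 fold change was 3.77 without EV replicate 3. The SPDEF call was lost with limma voom and DESeq2 (adjusted p = 0.188 and 0.0538) and in 9 of 12 fits that left out a library, all except those without EV replicate 3, CDX1 replicate 1 or CDX1 replicate 3. It was also lost with limma on log2 RPKM (adjusted p = 0.142), only the libraries compared (adjusted p = 0.123) and the replicate block (adjusted p = 0.0736). With all libraries GFI1 and CREB3L1 fell and 0 rose in CDX1 cells, beside 23.3% and 21.3% of all genes. GFI1 went from 6.49 ± 1.51 to 2.53 ± 0.344 CPM. EHF+CDX1 against EV cells gave 0 edgeR calls among the 5, beside 7.3% of all genes higher and 3.13% lower, with 1 at an unadjusted p of 0.05. Without EV replicate 3 SPDEF was also called in CDX1 and in EHF+CDX1 against EV cells. In those fits 26.3% and 11.2% of all genes were called higher. The mean level of SPDEF over all libraries was 0.37 CPM in CDX1 and 0.567 CPM in EHF+CDX1 cells, above that in EV cells. POU2F3 and SOX4, also tested, were called in none of the comparisons with EV cells.

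For tested members other than NOTCH1, the gene most like each was sought over the 12 libraries, by Pearson correlation of log2 CPM among 12404 other genes whose log2 CPM averaged 1 or more. The points share the 4 lines and the deviation of EV replicate 3, so the values are descriptions. For NOTCH2 it was the sodium channel gene SCN8A (r = 0.94) and for NOTCH3 TMEM132A (0.973). For the ligands it was B4GALT1, a galactosyltransferase, with DLL1 (0.992), the cytokine gene IL18 with DLL4 (0.982), SRPX with JAG1 (0.967) and EPS8L2 with JAG2 (0.976). For HES1 it was MYO5B, a myosin of apical membrane traffic (r = 0.995), at 69.3 CPM in EV, 61.5 CPM in EHF, 179 CPM in CDX1 and 74.4 CPM in EHF+CDX1 cells, the order that HES1 had. With Spearman's rho another gene came first for each of these members.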

How the data were processed

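RNA-seq of polyA RNA was analysed in 12 libraries of 4 HCT116 lines, grouped by the labels. Reads had been mapped by the authors on GRCh38/hg38 with Subread, and those mapped uniquely were counted over RefSeq exons by featureCounts (both 2.0.0 in the submitters' processing notes). The strand setting is not given in the sources used here, so reads of overlapping genes cannot be told apart. The authors deposited raw counts for 28395 genes (550 with an Entrez identifier and no symbol) and log2 RPKM values made by limma voom with quantile normalization. The count table holds no exon lengths, so levels between genes were taken from the deposited log2 RPKM.

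The test was edgeR 4.0.16 (R 4.3.3), with TMM factors, genes at a CPM of 0.5 in at least 3 libraries (leaving out 0.0585% of counts) and a quasi-likelihood model of the 4 lines. Calls used glmTreat against 1.5-fold at a Benjamini-Hochberg adjusted p of 0.05 over 15853 genes, and fold changes and SE (size divided by the root of F) the test against no change. Unless said otherwise an adjusted p is that of the 1.5-fold test. Alternatives were limma 3.58.1 (voom and treat), DESeq2 1.42.0, RLE factors, all genes with at least 1 read, the test for any change, fits restricted to the libraries compared, a replicate block, each library left out, and limma on log2 RPKM. The fits were tested on simulated data. The detection floor was 3 reads per library.

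The members and gene lists were chosen with earlier results of these data known. Named were all members, in each group of the wider list the called genes with the largest change (up to 3 in EHF+CDX1, 2 each in EHF and CDX1 against EV cells), and the most correlated gene of each member. The last for NOTCH1 and the sums of the leukocyte marker list are not reported here. Other genes beside small counts, the heat shock genes and the motif TGGGAA were chosen after values were seen. Promoters, positions and overlaps came from RefSeq tables of GRCh38.p14.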

Additional observations from a re-analysis of the deposited data

Results flagged for a closer look

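In 4 members the effect of EHF differed between CDX1 and EV cells by the interaction term in edgeR, on the log2 scale, beside 20.2% of all genes called higher and 18% lower for that term. The difference was -2.91 for DLL4, from 1.71 for EHF over EV cells and -1.21, which was not called, for EHF+CDX1 over CDX1 cells, -2.01 for HES1 and -1.60 for DLL1. It was 1.05 for JAG2, a call made in 2 of the 12 fits that left out a library. The values without EV replicate 3, which stood apart, were -3.83, -2.03, -2.22 and 0.69 in the same order. Heat shock genes were high in CDX1 libraries, and their part in these differences was not tested.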

How the results depend on the processing

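Of the 8 members, HES1, DLL4 and DLL1 in CDX1 against EV cells, HES1 in EHF+CDX1 against CDX1 cells, and the interactions of HES1 and DLL4 were called under every alternative run and without each library. The number of members called changed as follows. In EHF+CDX1 against EV cells it was 0, and 1 with all genes of at least 1 read or when tested against no change, and 0 to 2 with a library left out. In EHF against EV cells it was 1, and 0 with limma voom, with only the libraries compared and with the replicate block, 3 against no change, and 0 to 2 with a library left out. CDX1 against EV cells had 3, 6 against no change, and 3 to 5 with a library left out. EHF+CDX1 against EHF cells had 0, and 1 against no change. EHF+CDX1 against CDX1 cells had 3, 1 with DESeq2, 6 against no change, and 1 to 4 with a library left out. The interaction had 4, 2 with DESeq2, and 2 to 4 with a library left out. Of the wider list, EHF+CDX1 against EV cells had 8 genes called, 5 with limma voom, with only the libraries compared and with limma on log2 RPKM, 23 against no change, and 4 to 10 with a library left out. EHF against EV cells had 9, 26 against no change, and 8 to 15 with a library left out, and EHF+CDX1 against EHF cells 2, 12 against no change, 6 with only the libraries compared, and 1 to 4 with a library left out. The test against no change drops the 1.5-fold margin, which calls more genes by construction (5328 in place of 1654 of all genes in EHF+CDX1 against EV cells). Over all genes that test called 16.9% higher and 16.7% lower in EHF+CDX1 against EV, 14.9% and 15.1% in EHF against EV, 33.8% and 35.1% in CDX1 against EV, 5.65% and 4.13% in EHF+CDX1 against EHF, and 34.9% and 32.3% in EHF+CDX1 against CDX1 cells. With a library left out the calls among all genes ran from 1124 to 2442 (1654 with all libraries), 1007 to 2043 (1321), 6281 to 8045 (7075), 137 to 658 (425) and 5643 to 7586 (6499) in the same order, and from 5406 to 7520 (6055) in the interaction, the highest of each comparison with EV cells being without EV replicate 3. DESeq2 called 5231 in EHF+CDX1 against CDX1 cells and 4870 in the interaction. The cause of the other changes was not tested.

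No reversed value was called. For NOTCH1 the log2 fold change of EHF+CDX1 over EV cells was 0.027 with limma voom and 0.018 on log2 RPKM and ran from -0.43 to 0.42 with a library left out, that of EHF over EV cells from -0.49 to 0.36, and that of EHF+CDX1 over EHF cells from -0.0044 to 0.0956. For NOTCH2 it was 0.060 and 0.047 in EHF over EV cells with the same tools, and -0.19 to 0.18 with a library left out, -0.29 to 0.077 in CDX1 over EV cells, 0.23 and 0.24 in EHF+CDX1 over CDX1 cells, and 0.17 and 0.19 in the interaction, where leaving out a library gave -0.35 to 0.016. JAG2 in EHF+CDX1 over EV cells ran from -0.50 to 0.034, JAG1 in CDX1 over EV cells from -0.29 to 0.13, and the interaction of NOTCH3 from -0.24 to 0.53.

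Libraries with the same replicate number did not deviate together over all genes (correlations between -0.0653 and 0.0802). Whether the numbers stand for a shared culture or preparation is not given in the labels. With the replicate block the members called were 0 in EHF against EV cells, 4 in CDX1 against EV cells and 3 in the interaction. At the depth of the smallest library, 3 reads are worth 0.207 CPM, which limits ATOH1, DTX3, DLL3 and SPDEF.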
